A study of Mus musculus with 6 samples.

Results

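The integrated stress response and the unfolded protein response genes described here were 42 genes chosen by symbol from a table of 20896 transcripts, 1 per gene, and 40 of them had a row. They formed 2 arms: 28 genes of the ATF4 program of amino acid supply and tRNA charging, of which 26 had a row, and 14 genes of endoplasmic reticulum folding and degradation, all with a row. Sesn2 and Stc2, both of the ATF4 arm, were not analysed here. The filter on low reads removed none of the 40.

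RNA came from clones of mpkCCD, mouse cells of the kidney cortical collecting duct kept as a line, with 3 control clones and 3 clones labelled PKA dKO, a double knockout of protein kinase A (PKA; the series title names CRISPR-Cas9), and 1 library for each clone. How the control clones were made, and which genes were edited, is not given in the labels. Every clone of both groups was grown on permeable supports for 4 days with 2% serum, insulin, dexamethasone, triiodothyronine, epidermal growth factor, selenite and transferrin, and then kept for 3 days without serum or hormones in 0.1 nM dDAVP, a vasopressin analog acting on the V2 receptor. The comparison asks how expression under dDAVP differed between the groups, and no library without dDAVP was analysed here. A clone is 1 line, so a group difference holds differences between clones as well as the knockout, and the p-values measure only the spread between these libraries. In bulk RNA, fewer cells carrying a transcript and less of it per cell cannot be told apart.

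The integrated stress response starts when a stress-sensing kinase phosphorylates the initiation factor eIF2, which lowers general translation while ATF4 protein is made through upstream reading frames in its mRNA. ATF4, often paired with C/EBP proteins, then raises genes for amino acid synthesis, amino acid uptake and tRNA charging, and its partner CHOP and the phosphatase subunit GADD34 feed back on the response. The unfolded protein response of the endoplasmic reticulum runs through PERK, which feeds the same ATF4 route, through IRE1, which splices Xbp1 mRNA, and through ATF6, which is cut at the Golgi, and the IRE1 and ATF6 routes raise chaperone and degradation genes. Collecting duct cells make and traffic large amounts of membrane protein, which folds in that compartment. The table holds mRNA of 1 transcript per gene, so translation of ATF4, splicing of Xbp1 and cutting of ATF6 were not measured.

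Promoter sites known for the ATF4 and ATF6 routes are shown first, because the genes that carry them recur in the results below, and no difference between the arms was tested. Windows of the 250 bases before each RefSeq start (GRCm38.p6; the submitters' processing notes name GRCm38.p5) were found for 21 members of the ATF4 arm and 11 of the endoplasmic reticulum arm. The core of the C/EBP-ATF composite site, TGATGNAA on either strand, was in the windows of 5 of those 21, Atf3, Asns, Gars, Chac1 and Vldlr, and of 1 of those 11, Herpud1, against 3.45% of all 32851 windows. A member was counted if any of its windows held the site, whereas the share over all is by window. Counted by window, this core was in 5 of 25 in the ATF4 arm and 1 of 11 in the endoplasmic reticulum arm. The longer form TGATGNAAT, which contains that core, was in 1 of the 21, Gars, and in 0.816% of all windows. The sites in 4 of these genes are given 5′ to 3′ on the gene's strand, with the match in capitals.
Asns, chr6:7693210-7693247, minus strand: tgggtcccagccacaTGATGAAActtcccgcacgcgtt
Gars, chr6:55037956-55037993, plus strand: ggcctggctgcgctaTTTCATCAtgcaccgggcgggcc
Chac1, chr2:119351034-119351071, plus strand: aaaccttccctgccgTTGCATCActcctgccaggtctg
Herpud1, chr8:94386302-94386339, plus strand: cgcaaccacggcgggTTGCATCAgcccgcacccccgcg

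The endoplasmic reticulum stress element, CCAAT and CCACG separated by 9 bases on either strand and the site of ATF6 with NF-Y, was in the windows of 5 of the 11 endoplasmic reticulum members, Hspa5, Hsp90b1, Dnajc3, Calr and Creld2, in none of the 21 ATF4-arm members and in 0.113% of all windows. Its second form, ATTGG and CCACG separated by 1 base, was in 1 of the 11, Herpud1, and in 0.0304% of all windows. Herpud1 was thus the gene among the 32 matched members whose window held both the composite core and an endoplasmic reticulum stress element. The UPRE core TGACGTGG was in no member's window and in 0.563% of all windows, and the short element CCACG, part of the longer elements, was in 13 of the 21, 9 of the 11 and 28.3% of all windows. A match of letters is a description of the window and does not show that a factor was bound.
Herpud1, chr8:94386362-94386402, plus strand: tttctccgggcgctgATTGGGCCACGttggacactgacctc
Hspa5, chr2:34772010-34772058, plus strand: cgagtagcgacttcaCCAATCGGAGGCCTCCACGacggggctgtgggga
Hsp90b1, chr10:86705518-86705566, minus strand: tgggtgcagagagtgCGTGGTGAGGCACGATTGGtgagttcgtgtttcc
Dnajc3, chr14:118937812-118937860, plus strand: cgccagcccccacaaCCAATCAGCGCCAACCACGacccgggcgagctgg

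The libraries held 28596444 to 42515838 recovered reads. In 2 libraries, control clone 1 and dKO clone 3, more transcripts were without any read (2443 and 2363, against 863 to 1045 in the other 4), and these 2 lay at -91.7 and -76.8 on a first principal component with 68.1% of the variance, against 20.9 to 74.1. This split was known from earlier results of these data, and each group holds 1 of the 2, so the results are also given within the other 4 libraries (control clones 2 and 3 against dKO clones 1 and 2). Prkaca, which encodes the PKA catalytic subunit alpha and was used with Prkacb, the gene of the beta subunit, to check the labels, had 75.8 to 133 CPM (reads scaled to library size) in control clones against 6.65 to 8.49 CPM in the dKO clones. Prkacb had 138, 109 and 116 CPM in clones 1, 2 and 3 of the controls and 99.1, 105 and 105 CPM in those of the dKO group (log2 fold change -0.23, SE 0.13; limma adjusted p = 0.939), without overlap but not past the test. Epithelial genes (Epcam, Cdh1, Krt8, Krt18, Krt19, Cdh16) summed to 5273 to 7024 CPM. The 12 principal-cell genes of the collecting duct summed to 1312 to 1928 CPM in control and 1400 to 1494 CPM in the dKO clones, with Aqp2 at 1.82 to 399 CPM. Among them Aqp3, Aqp4, Scnn1b and Kcnj1 were low, at 1.36 to 1.84, 0.140 to 10.8, 1.26 to 3.78 and 0.166 to 0.887 CPM. The fibroblast and endothelial lists summed to at most 7.66 and 6.41 CPM. The immune list summed to 36.4 to 69.2 CPM, nearly all of it Csf1r. The proximal tubule list summed to 311 to 407 CPM in control and 699 to 865 CPM in the dKO clones, nearly all of it Lrp2, and its part in the results was not tested.

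Across the 6 libraries, 24 of the 26 ATF4-arm genes had a lower fitted level in the dKO clones, with a median log2 fold change of -0.26, against 50.2% of genes with a lower level and a median of -0.00 over all 16683 genes tested. None of the 26 passed the test (limma-trend, Benjamini-Hochberg adjusted p under 0.05 over all genes), where 0.168% of all genes passed. At an unadjusted p under 0.05, 6 were lower and none higher, against 3.84% and 2.40% of all genes, and edgeR's quasi-likelihood test passed none (0.168% of all genes) while DESeq2 passed 2, Asns and Mthfd2, where it passed 1.28% of all genes. The 3 dKO values lay below all 3 control values for 7 of the 26, namely Atf4, Atf5, Asns, Mthfd2, Nars, Gars and Cars, against 5.67% of all genes, and none had all dKO values above, against 5.15% of all genes. The genes of an arm share the same 6 libraries, so these are not counts of independent events.

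In the endoplasmic reticulum arm, fold changes lay on both sides of 0. Of its 14 genes, 8 had a positive and 6 a negative fold change, with a median log2 fold change of 0.01. This balance moved with single libraries: 3 were positive without control clone 2 and 4 without dKO clone 3. Without control clone 1, or without dKO clone 2, 9 were positive. None passed with limma, the quasi-likelihood test or DESeq2. The groups overlapped for all 14, where 5.67% of all genes lay wholly lower and 5.15% wholly higher, and 2 genes, Herpud1 and Dnajc3, were lower at an unadjusted p under 0.05, against 3.84% of all genes. With 14 genes, an absence of non-overlapping ones is near those shares. The difference between the arms was not tested.

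**Figure D1:**
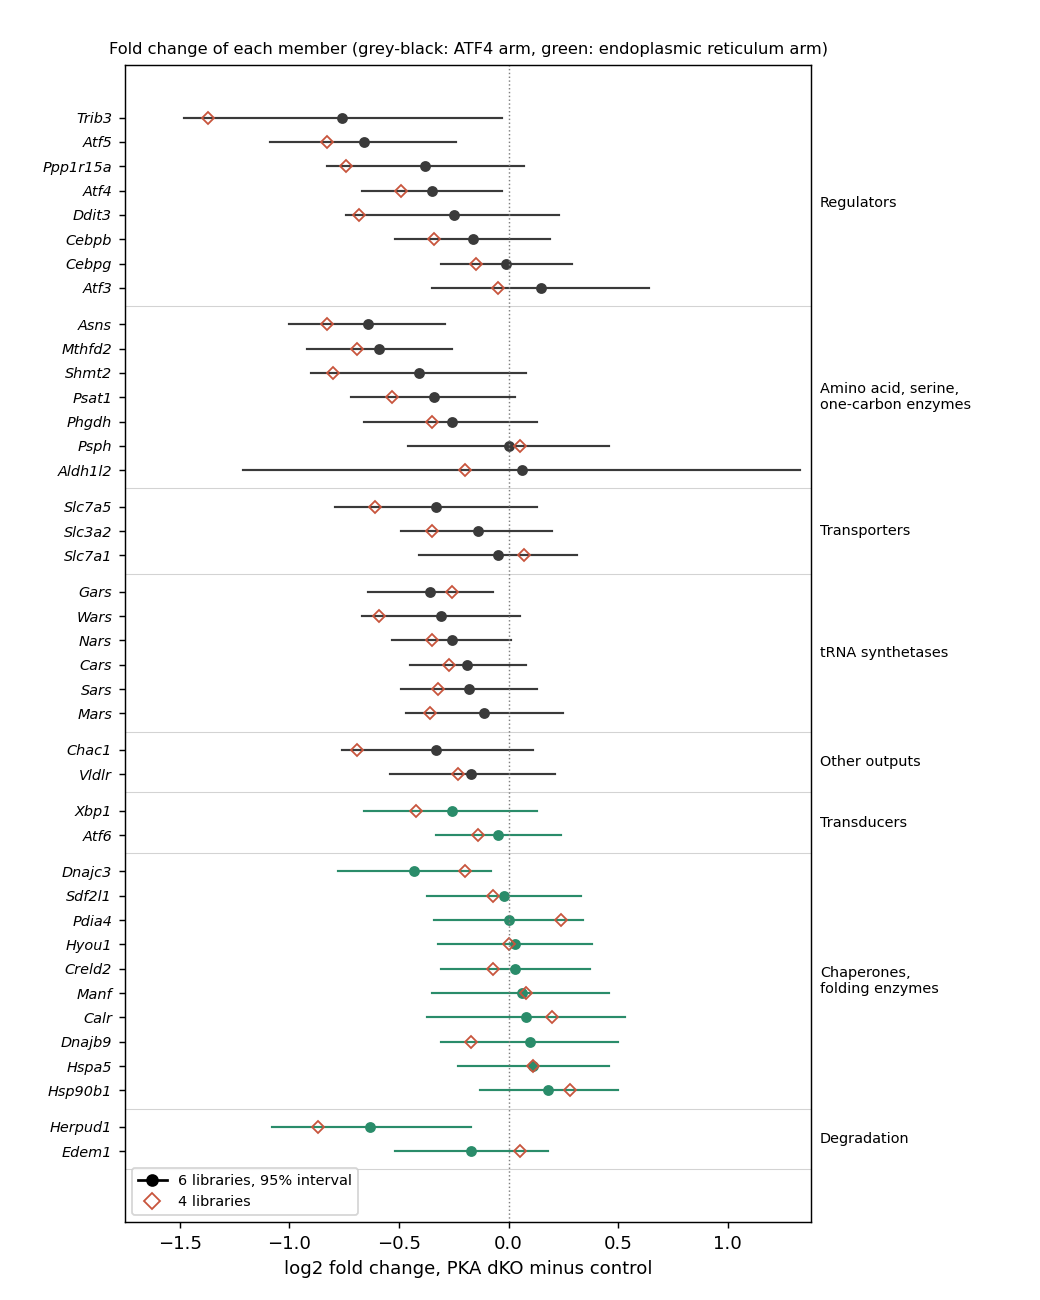
Log2 fold change (PKA dKO minus control) of the 40 genes by role, with 95% intervals from the 6 libraries and open diamonds for the 4 libraries without control clone 1 and dKO clone 3. Most ATF4-arm genes lie left of 0 and move further left in the 4 libraries, while the chaperone genes other than Dnajc3 lie between -0.02 and 0.18.

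The libraries with the highest and lowest levels differed between the arms. The median deviation of the ATF4-arm genes from their own mean over 6 libraries, in clones 1, 2 and 3, was 0.03, 0.10 and 0.23 (log2) among controls and -0.23, -0.26 and 0.11 among dKO clones. In dKO clones 1 and 2, 24 of 26 genes lay below their mean in each, while in dKO clone 3 it was 8 of 26. Among the dKO clones, clone 3 was highest for 22 of the 26 genes, and among the control clones, clone 1 was lowest for 16. The endoplasmic reticulum arm had its highest medians in control clone 1 (0.21) and dKO clone 3 (0.24), the 2 libraries that stood apart, and -0.12 to -0.06 in the other 4. Over all genes tested these medians ran from -0.00 to 0.04.

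**Figure D2:**
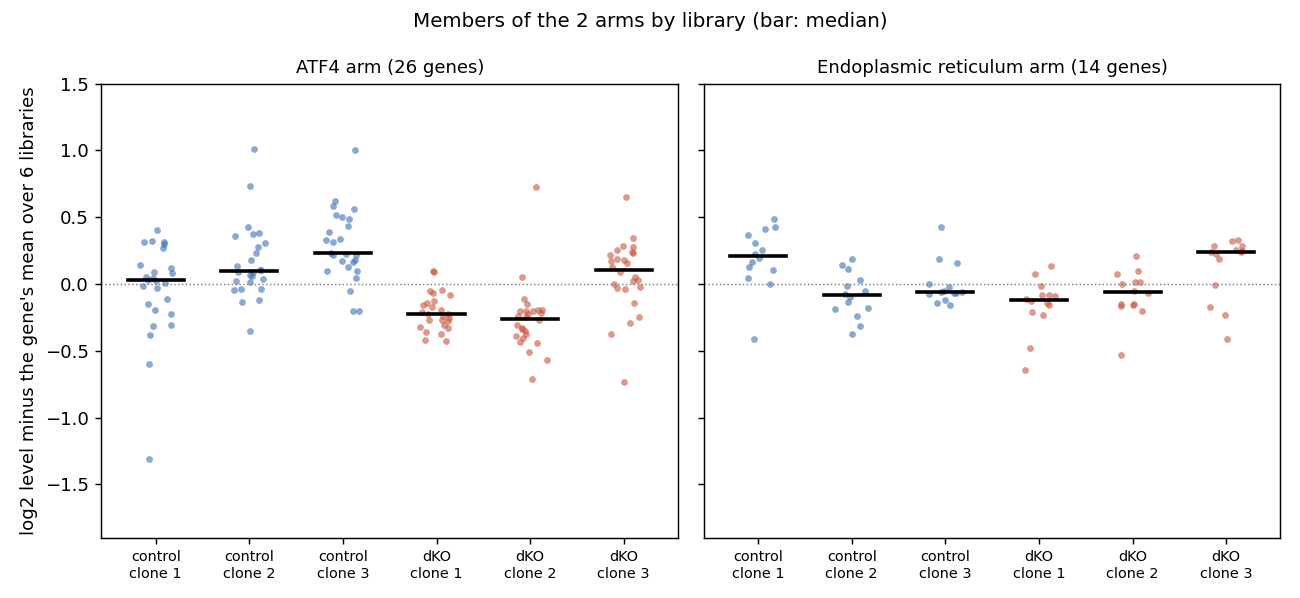
Each point is 1 gene's log2 level minus its mean over the 6 libraries, by library, for the ATF4 arm (26 genes) and the endoplasmic reticulum arm (14 genes), with a bar at the median. In the ATF4 arm dKO clones 1 and 2 lie low at -0.23 and -0.26 and dKO clone 3 at 0.11, and in the endoplasmic reticulum arm control clone 1 and dKO clone 3 lie high at 0.21 and 0.24.

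Within the 4 libraries, 12 of the 26 ATF4-arm genes passed, all lower in dKO clones, where 1.71% of all genes passed lower and 1.69% higher. They were Atf4, Atf5, Ddit3, Trib3, Ppp1r15a, Asns, Psat1, Shmt2, Mthfd2, Slc7a5, Wars and Chac1, and the arm's median log2 fold change was -0.35. In the endoplasmic reticulum arm 1 of 14 passed, Herpud1, also lower, and the median was -0.04. Leaving out control clone 1 alone, 4 ATF4-arm genes passed, Trib3, Asns, Shmt2 and Mthfd2, all lower, where 0.336% of all genes passed lower. With only 2 clones in each group, the 4-library result does not describe dKO clone 3 or control clone 1, and for 8 of the 12 genes the groups overlapped once these were included. With all libraries kept and the split between these and the other 4 fitted as a term, none of the 26 passed, where 71 of all genes did.

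Among the regulators, Atf4, the master transcription factor of the response, was the most abundant ATF4-arm gene per length, at 362 ± 36.6 CPM per kilobase (SD, n = 3) in control clones. Its level was 559, 624 and 684 CPM in the controls and 454, 474 and 538 CPM in the dKO group, each in the order of clones 1, 2 and 3, as in all such values below. The groups did not overlap, with control clone 1 and dKO clone 3 nearest to each other. The log2 fold change was -0.35 (SE 0.15, 95% interval -0.67 to -0.03; limma adjusted p = 0.714), and -0.49 within the 4 libraries (SE 0.11, adjusted p = 0.0246). Atf4 (ENSMUSG00000042406.8; GRCm38 chromosome 15, 80255184 to 80257540, plus strand, 3 exons) lies on a chromosome where the median gene deviated by -0.024, 0.18 and 0.091 in the controls and by -0.043, -0.045 and -0.055 in the dKO group. With each library's chromosome medians removed, its log2 fold change was -0.22.

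Atf5, a related factor that is also controlled through upstream reading frames, had 47.2, 40.3 and 56.9 CPM in control and 31.4, 23.2 and 37.4 CPM in the dKO clones. All dKO values lay below all control values, and the log2 fold change was -0.66 (SE 0.19, 95% interval -1.09 to -0.24; limma adjusted p = 0.365), with -0.83 within the 4 libraries (adjusted p = 0.0138). Trib3, a pseudokinase that binds ATF4 and dampens the response, had the lowest fold change of either arm at -0.76 (SE 0.33, 95% interval -1.48 to -0.03; limma adjusted p = 0.748). Its levels were 31.0, 78.2 and 93.9 CPM in control and 34.8, 31.6 and 42.6 CPM in the dKO clones. Control clone 1 was thus at the level of the dKO clones, while control clones 2 and 3 were well above them. Without control clone 1 the log2 fold change of Trib3 was -1.25 (limma adjusted p = 0.00368), and within the 4 libraries it was -1.37 (SE 0.13, adjusted p = 1.36e-05). Both leave out the control clone that lay with the dKO clones. Without dKO clone 3 alone it was -0.88 (limma adjusted p = 0.844), and without control clone 3 no ATF4-arm gene was below -0.54.

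Ddit3, which encodes CHOP, the factor tied to death under lasting stress, differed from Trib3 in dKO clone 3. It had 28.4, 43.4 and 46.0 CPM in control and 30.0, 26.0 and 42.7 CPM in the dKO clones, so control clone 1 lay with dKO clones 1 and 2, and dKO clone 3 with control clones 2 and 3. The log2 fold change was -0.25 (SE 0.22, 95% interval -0.74 to 0.23; limma adjusted p = 1.000) and -0.68 within the 4 libraries (adjusted p = 0.00894). Ddit3 (chromosome 10, 127290774 to 127296288, plus strand) and the tRNA synthetase gene Mars (127296222 to 127311786, minus strand) overlap at their ends. The median gene of chromosome 10, which also holds Shmt2, Aldh1l2 and Hsp90b1, deviated by -0.23 in control clone 1, against -0.07 to 0.14 in the other 5 libraries, and with chromosome medians removed Ddit3 stood at -0.28 and Shmt2 at -0.44. The sources used here do not state whether counting used strand, so reads of that overlap cannot be told apart. Ppp1r15a, which encodes GADD34, the subunit that directs eIF2 dephosphorylation, stood at -0.38 (59.5 ± 16.4 CPM in control and 44.7 ± 6.68 CPM in the dKO clones, n = 3 each), and at -0.74 within the 4 libraries (limma adjusted p = 0.00225).

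The other regulators had fold changes nearer 0. Atf3, a stress-induced repressor of the same family, had the highest fold change of the ATF4 arm, 0.15 (SE 0.23, 95% interval -0.35 to 0.64; limma adjusted p = 1.000). Its levels were 44.6, 37.3 and 35.7 CPM in control and 38.8, 32.2 and 64.6 CPM in the dKO clones, so dKO clone 3 alone lay above the control clones, and without it the log2 fold change was -0.14. Cebpb and Cebpg, C/EBP factors that pair with ATF4, had log2 fold changes of -0.16 (SE 0.16) and -0.01 (SE 0.14).

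**Figure D3:**
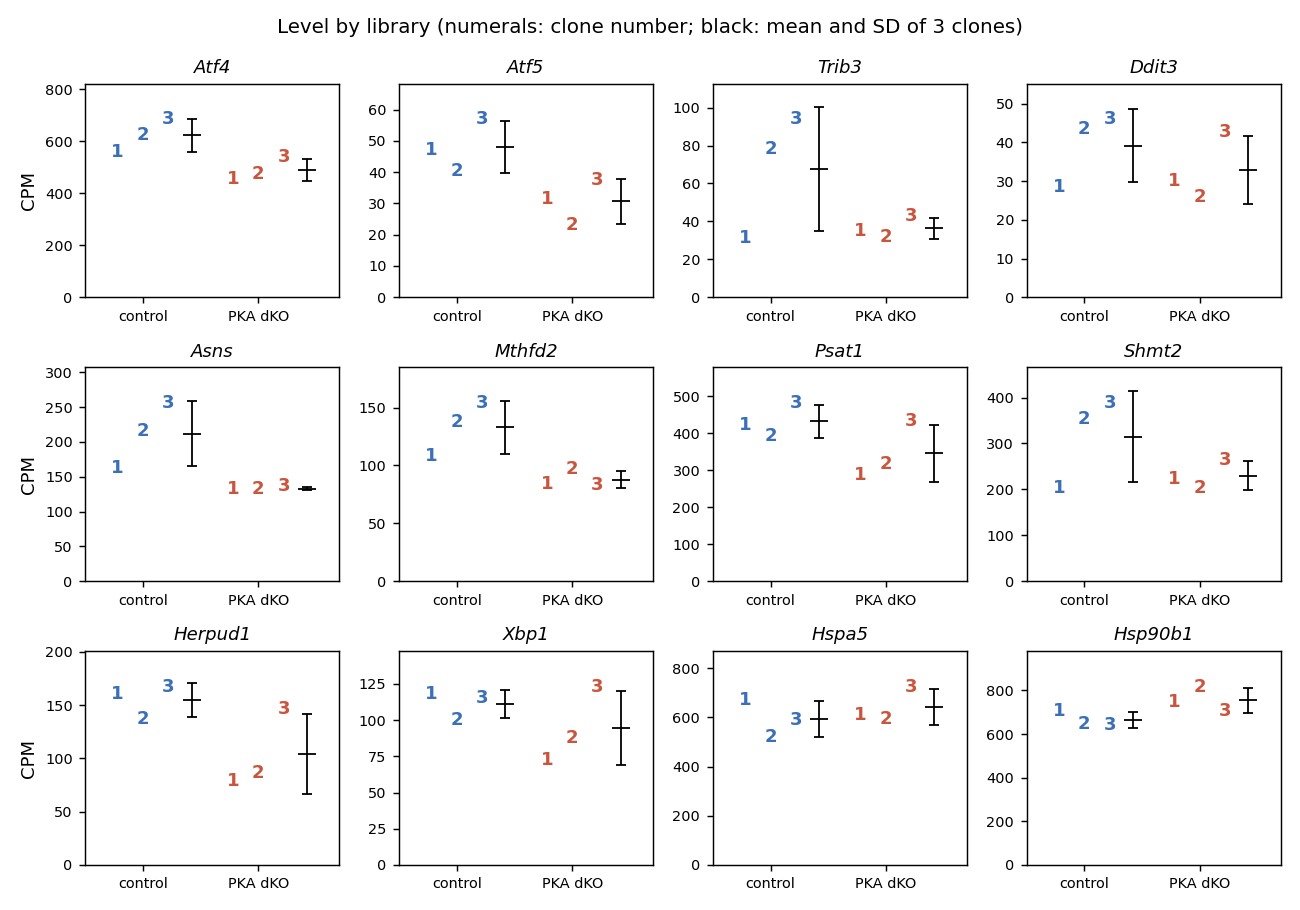
Level in CPM (axes from 0) of 12 genes in control and PKA dKO clones, with each clone drawn as its number and the mean and SD of 3 clones in black. For Trib3, Ddit3 and Shmt2 control clone 1 lies with the dKO clones, whereas for Asns and Mthfd2 all dKO clones lie below all control clones.

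The enzymes of amino acid supply included Asns and Mthfd2, the genes of lowest p in the arm. Asns (ENSMUSG00000029752.12; GRCm38 chromosome 6, 7675169 to 7693254, minus strand, 12 exons), asparagine synthetase and a classic ATF4 target, had 163, 216 and 256 CPM in control and 132, 132 and 136 CPM in the dKO clones. The 3 dKO clones were nearly equal and below every control clone. The log2 fold change was -0.64 (SE 0.16, 95% interval -1.0 to -0.29; limma adjusted p = 0.233), and -0.83 within the 4 libraries (adjusted p = 4.75e-04). Over the alternatives run, its adjusted p ranged from 4.75e-04 to 0.638. Mthfd2, the mitochondrial folate enzyme that works beside SHMT2, had 108, 138 and 154 CPM in control and 83.8, 96.7 and 83.1 CPM in the dKO clones, again without overlap. Its log2 fold change was -0.59 (SE 0.15, 95% interval -0.92 to -0.26; limma adjusted p = 0.249), with adjusted p from 0.00236 to 0.636 over the alternatives.

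Asns, Mthfd2 and Gars lie on chromosome 6, together with Pdia4 and Edem1 of the endoplasmic reticulum arm, and the median gene of chromosome 6 deviated by -0.40 in dKO clone 3, against 0.03 to 0.19 in the other 5 libraries. With each library's chromosome medians removed, the log2 fold changes were -0.47 for Asns, -0.42 for Mthfd2 and -0.19 for Gars, and none of the 40 genes passed (0.126% of all genes). In dKO clones 1 and 2 the chromosome 6 median was 0.10 and 0.12, and Asns and Mthfd2 were below every control clone. The part of chromosome shifts in these fold changes was not tested. The 23 ATF4-arm genes on other chromosomes had a median log2 fold change of -0.25, and 21 of them were negative. Within the 4 libraries 10 of the 23 passed, all lower, against 1.71% of all genes lower and 1.69% higher.

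The serine pathway feeds carbon to the folate cycle. Psat1, its transaminase, had 422, 393 and 481 CPM in control and 286, 317 and 432 CPM in the dKO clones, so dKO clone 3 lay within the control range. The log2 fold change of Psat1 was -0.34 (SE 0.17, 95% interval -0.72 to 0.03; limma adjusted p = 0.877) and -0.53 within the 4 libraries (adjusted p = 0.0228). Shmt2, which splits serine in mitochondria, stood at 202 CPM in control clone 1, beside dKO values of 203 to 263 CPM, against 354 and 388 CPM in control clones 2 and 3, and its log2 fold change was -0.41 overall and -0.80 within the 4 libraries (limma adjusted p = 5.30e-04). Phgdh, the first enzyme of serine synthesis, stood at -0.26 (477 ± 58.6 and 402 ± 93.1 CPM), and Psph, the last, at -0.00 (25.4 ± 6.80 and 25.1 ± 4.75 CPM). Aldh1l2, a mitochondrial folate enzyme, was low in all libraries at 0.941 to 4.91 CPM and its log2 fold change of 0.06 had an SE of 0.58.

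The 3 transporters and 6 tRNA synthetases had median log2 fold changes of -0.14 and -0.22, nearer 0 than the -0.34 of the enzymes. Slc7a5, the light chain of the LAT1 carrier for large neutral amino acids, had a log2 fold change of -0.33 (SE 0.21) and passed within the 4 libraries at -0.61 (limma adjusted p = 0.0204), with dKO clone 3 at 140 CPM inside the control range of 108 to 149 CPM. Its heavy chain partner Slc3a2 stood at -0.14, and Slc7a1, a carrier of cationic amino acids, at -0.05. All 6 cytosolic synthetase genes had negative log2 fold changes, from -0.36 for Gars to -0.11 for Mars. Gars, for glycine, had 249, 204 and 235 CPM in control and 193, 173 and 171 CPM in the dKO clones (log2 fold change -0.36, SE 0.13, 95% interval -0.64 to -0.07; limma adjusted p = 0.571). Nars, for asparagine, had 201, 208 and 228 CPM in control and 174, 169 and 189 CPM in the dKO clones (-0.26, SE 0.12, 95% interval -0.53 to 0.01; limma adjusted p = 0.821). For both, every dKO clone lay below every control clone, as it did for Cars, at 88.5, 90.1 and 89.7 CPM in control and 76.5, 72.7 and 87.0 CPM in the dKO clones (-0.19, SE 0.12). Sars, for serine, stood at -0.18 (446 ± 23.3 and 395 ± 52.7 CPM). Wars passed within the 4 libraries at -0.59 (limma adjusted p = 0.00384).

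Of the other outputs, Chac1, which degrades glutathione, had 73.1 ± 17.4 CPM in control and 58.0 ± 12.5 CPM in the dKO clones, with a fold change (log2) of -0.33 (SE 0.20) and -0.69 within the 4 libraries (limma adjusted p = 0.00450). Vldlr, a lipoprotein receptor gene that the PERK route can raise, stood at -0.17 (SE 0.17). The 5 ATF4-arm genes with the composite core in the promoter window covered most of the range of the arm: Asns at -0.64, Gars at -0.36, Chac1 at -0.33, Vldlr at -0.17 and Atf3 at 0.15.

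In the endoplasmic reticulum arm, neither transducer passed. Atf6 was nearly equal among the control clones, at 154, 152 and 149 CPM, and had 138, 134 and 170 CPM in the dKO clones, so the dKO clones lay on both sides of the controls (log2 fold change -0.05, SE 0.13, 95% interval -0.33 to 0.24). Xbp1, whose spliced mRNA encodes the active factor, had 118, 99.9 and 115 CPM in control and 72.5, 87.9 and 123 CPM in the dKO clones. Clones 1 and 2 of the dKO group lay below all controls and clone 3 above them, with a log2 fold change of -0.26 (SE 0.18, 95% interval -0.66 to 0.13; limma adjusted p = 1.000) and -0.42 within the 4 libraries (adjusted p = 0.0746).

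The 10 chaperone and folding genes had a median log2 fold change of 0.04, and 8 of them had a fold change of 0.00 or above. Hspa5, the lumenal chaperone BiP and the usual readout of the unfolded protein response, had 669, 521 and 590 CPM in control and 608, 593 and 724 CPM in the dKO clones. The groups overlapped, and the log2 fold change was 0.11 (SE 0.16, 95% interval -0.23 to 0.46; limma adjusted p = 1.000), the same 0.11 within the 4 libraries. Hsp90b1, the lumenal HSP90 called GRP94, had the highest fold change of the arm, 0.18 (SE 0.14, 95% interval -0.13 to 0.50; limma adjusted p = 1.000). Its values were 706, 646 and 642 CPM in control and 746, 816 and 704 CPM in the dKO clones, so dKO clone 3 and control clone 1 met. Calr, a lectin chaperone of glycoproteins, varied most among the control clones, with 833 CPM in clone 1 against 484 and 560 CPM in clones 2 and 3, and 566, 634 and 743 CPM in the dKO clones (log2 fold change 0.08, SE 0.21, 95% interval -0.37 to 0.53). Dnajb9, a BiP cochaperone, had 20.5, 29.5 and 30.4 CPM in control and 24.5, 28.8 and 31.9 CPM in the dKO clones (0.10, SE 0.18, 95% interval -0.31 to 0.50).

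Dnajc3, a BiP cochaperone that also inhibits eIF2 kinases, was the chaperone gene with a negative fold change beyond -0.02. It had 161, 130 and 113 CPM in control and 97.6, 115 and 86.3 CPM in the dKO clones, and the log2 fold change was -0.43 (SE 0.16, 95% interval -0.78 to -0.08; limma adjusted p = 0.596). Dnajc3 lies on chromosome 14, where the median gene deviated by 0.28 in control clone 1 and by -0.44 in dKO clone 3, the libraries where the gene was highest and lowest. With chromosome medians removed its log2 fold change was -0.22 (SE 0.13), and within the 4 libraries -0.20 (SE 0.12). The remaining chaperone and folding genes, Pdia4, Hyou1, Sdf2l1, Manf and Creld2, ran from -0.02 to 0.06, and the highest levels of Hyou1, Sdf2l1, Manf and Creld2 were in dKO clone 3.

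Herpud1 (ENSMUSG00000031770.16; GRCm38 chromosome 8, 94386438 to 94395377, plus strand, 8 exons), a membrane protein of the degradation complex, was the gene of the endoplasmic reticulum arm with the lowest fold change. It had 160, 137 and 167 CPM in control and 79.1, 85.8 and 146 CPM in the dKO clones, so dKO clones 1 and 2 lay far below the controls and dKO clone 3 within their range. The log2 fold change was -0.63 (SE 0.21, 95% interval -1.08 to -0.17; limma adjusted p = 0.486), and -0.87 within the 4 libraries (SE 0.12, adjusted p = 5.15e-04). Psat1, Phgdh, Slc7a5, Sars, Wars and Chac1 of the ATF4 arm had dKO clones 1 and 2 below every control clone and dKO clone 3 within the control range. Other genes of that arm, such as Atf4, Asns and Trib3, did not. In the endoplasmic reticulum arm, Xbp1, Atf6 and Creld2 also had dKO clones 1 and 2 below every control clone, with dKO clone 3 above them, and Hspa5 did not. How often such layouts occurred over all genes was not counted. Edem1, which directs misfolded glycoproteins to degradation, had 73.2, 52.6 and 50.2 CPM in control and 51.3, 55.1 and 48.4 CPM in the dKO clones, with a fold change (log2) of -0.17 (SE 0.16, 95% interval -0.52 to 0.18), with control clone 1 alone high.

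Lists of related genes were read from the same fit, and no gene of any of them passed over all genes. Among 17 further ATF4 targets tested, 16 had a negative fold change, the median was -0.32, 7 were lower and none higher at an unadjusted p under 0.05 (3.84% and 2.40% of all genes), and 8 had dKO values below all control values (5.67% of all genes). Pck2, the mitochondrial PEPCK, had 208, 188 and 190 CPM in control and 143, 124 and 110 CPM in the dKO clones (log2 fold change -0.65, SE 0.13; limma adjusted p = 0.114), and it lies on chromosome 14. Slc6a9, a glycine transporter, had 34.1, 48.9 and 47.1 CPM and 26.8, 20.3 and 28.5 CPM (-0.78, SE 0.18; limma adjusted p = 0.208). Pycr1, of proline synthesis, had 8.52, 11.7 and 12.5 CPM and 6.17, 5.64 and 5.61 CPM (-0.88, SE 0.22; limma adjusted p = 0.232). In these 3 genes dKO clone 3, too, lay below every control clone, which was not so for Trib3, Ddit3 or Herpud1. The median gene of chromosome 14 deviated by 0.28 in control clone 1 and by -0.44 in dKO clone 3. With chromosome medians removed, the log2 fold changes were -0.44 for Pck2, -0.80 for Slc6a9 and -0.91 for Pycr1. Within the 4 libraries 10 of the 17 passed, all lower, where 1.71% of all genes passed lower and 1.69% higher.

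Among 13 further cytosolic tRNA synthetase genes, 10 had a negative fold change (median -0.19), led by Tars for threonine, at 162, 194 and 209 CPM in control and 111, 115 and 137 CPM in the dKO clones (log2 fold change -0.64, SE 0.14; limma adjusted p = 0.163), Iars (-0.38) and Vars (-0.28). The 17 mitochondrial tRNA synthetase genes had a median of 0.16, with 13 positive, where 50.2% of all genes were negative. At an unadjusted p under 0.05, 1 of the 17 was higher and none lower, near the 2.40% and 3.84% of all genes. Their median was 0.06 without dKO clone 3 and 0.08 within the 4 libraries. Of these Lars2 stood far out, at 115, 278 and 554 CPM in control and 808, 1184 and 1345 CPM in the dKO clones (log2 fold change 2.06, SE 0.44, limma adjusted p = 0.139), without overlap but with wide spread in both groups. The other genes of this list reached at most 95.7 CPM in any library. Whether all reads counted for Lars2 came from its mRNA was not tested. Lars2 passed within the 4 libraries at 1.32 (limma adjusted p = 0.00466) and without control clone 1 at 1.47 (limma adjusted p = 0.0272). Tars2 and Cars2 followed at 0.26 and 0.43.

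The sensors and eIF2 factors, 12 genes tested, had a median of 0.09 and none at an unadjusted p under 0.05. Eif2ak3, which encodes PERK and lies on chromosome 6, stood at -0.33 (SE 0.16) and -0.14 within the 4 libraries, Eif2b5, a subunit of the eIF2 exchange factor, at 0.20, and Mbtps1, the protease that cuts ATF6, at -0.27. The 21 further folding and degradation genes had a median of 0.00 and were led by Edem3 (0.34), Hspa13 (0.22) and Wfs1 (-0.34). At an unadjusted p under 0.05, 1 of the 21 was higher and none lower, against 2.40% and 3.84% of all genes. The 9 cytosolic heat shock genes had a median of 0.09, led by Hsp90aa1 (0.19), Dnajb1 (0.17) and Hspa1b (-0.16), and the 7 mitochondrial chaperones and proteases a median of 0.12, led by Trap1 (0.18), Lonp1 (-0.26) and Yme1l1 (0.15). These medians moved when dKO clone 3 or control clone 1 was left out. Without dKO clone 3 they were -0.01 for the sensors and eIF2 factors, -0.05 for the folding and degradation genes, -0.09 for the heat shock genes and 0.04 for the mitochondrial chaperones and proteases, and within the 4 libraries 0.05, 0.06, -0.01 and -0.01. Without control clone 1 they were, in the same order, 0.06, 0.09, 0.17 and 0.07. Lonp1 passed within the 4 libraries, at -0.58 (limma adjusted p = 0.0052).

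**Figure D4:**
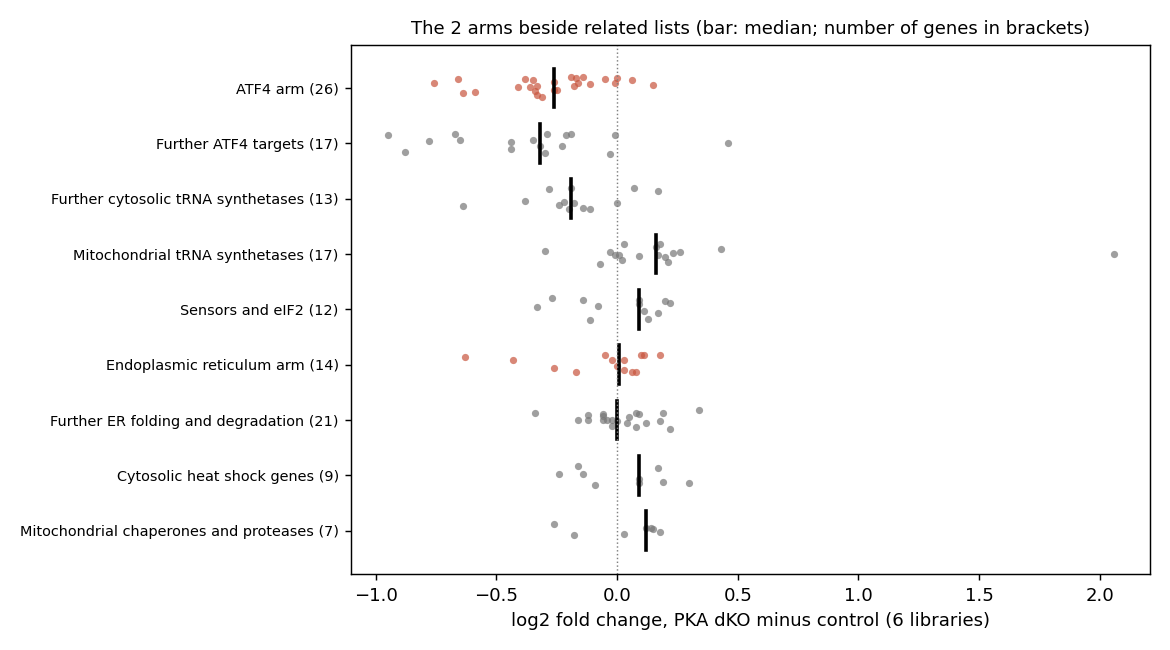
Log2 fold change over the 6 libraries for each gene of the 2 arms and of related lists, with a bar at each median. The ATF4 arm, further ATF4 targets and further cytosolic tRNA synthetases have medians of -0.26, -0.32 and -0.19, and the other lists lie between 0.00 and 0.16.

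In the authors' deposited table, which holds 39 of the 40 genes among 10190 transcripts, 4 had a false discovery rate under 0.05, all lower in dKO clones, where 2.49% of its transcripts were lower at that rate. In the authors' deposited table these were Asns (log2 fold change -0.70, false discovery rate 0.00569), Atf5 (-0.68, 0.0117), Mthfd2 (-0.63, 0.0152) and Herpud1 (-0.61, 0.0280). The authors' deposited table gave Trib3 -0.96 with a false discovery rate of 0.0571.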

How the data were processed

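RNA-seq of 6 libraries was analysed, 3 control and 3 PKA dKO clones. Per the labels' protocols, each library was made from 262 ng of total RNA after removal of ribosomal RNA, with a stranded kit. Tools listed in the submitters' processing notes, with no role for each, were HOMER 4.8, STAR 2.5.2a, edgeR and SAMtools, with the build GRCm38.p5. The submitters' expression table gives, per transcript, a length, a read signal scaled to a common total, and FPKM (scaled for length and depth, per the file headers). Every scaled value was a whole multiple of its library's step (within 0.01), so whole reads were recovered for CPM, edgeR and DESeq2. A second table, called the authors' deposited table in the results, holds the authors' log2 fold changes, p-values and false discovery rates, used only where named. The deposited FPKM were not tested.

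After a filter on recovered reads (filterByExpr, minimum count 10, minimum total 15), 16683 transcripts were tested and 4213 left out. The test was limma-trend on log2(scaled reads with TMM factors + 1), with group as the only term and Benjamini-Hochberg adjustment over all tested transcripts at 0.05. The added 1 equals about 0.055 CPM, so fold changes of low genes are understated. Moderated residual degrees of freedom were 11, and 95% intervals come from the same fit. CPM use TMM-adjusted library sizes, and means are ± SD of 3 clones. The chromosome alternative subtracted each library's median deviation of each chromosome's genes. Other alternatives were edgeR's quasi-likelihood test, DESeq2, its size factors, pseudocounts 0.5 and 5, no filter, each library left out, the 4 libraries, the library split as a term, and a replicate block. The procedure was also run on simulated data with each gene drawn independently. That simulation held no differences between libraries shared by many genes, so it does not show how the procedure handles them. Tools were R 4.3.3, limma 3.58.1, edgeR 4.0.16, DESeq2 1.42.0 and Python 3.11.15.

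Values in every library were given for Atf4, Ddit3, Atf6, Xbp1 and Hspa5, for up to 8 genes of lowest p in each arm and for each arm's extremes; other genes were named by role, and those passing within the 4 libraries were added after their values were seen. The related lists were named by their 3 genes of lowest p. Genes and lists were chosen with earlier results of these data known. Promoter windows came from RefSeq (GRCm38.p6).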

Additional observations from a re-analysis of the deposited data

How the results depend on the processing

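Of the 40 genes, 25 kept the sign of their fold change in all 16 alternatives, 14 changed it in at least 1, and Pdia4 had a fold change of 0.00. The threshold was passed in at least 1 alternative by 13 genes, all 13 within the 4 libraries and all lower there. Within the 4 libraries 1.71% of all genes passed lower and 1.69% higher. How many of all genes passed in at least 1 alternative was not counted. Over all genes, 28 passed, against 213 with DESeq2, 567 within the 4 libraries, 71 with the library split as a term and 11 to 138 with 1 library left out (the highest when control clone 1 was absent, 13 and 11 when dKO clone 1 or 2 was). ATF4-arm genes passing numbered 0, against 2 with DESeq2, 12 within the 4 libraries and 0 to 4 with 1 library left out, where the 4 came without control clone 1. With the library split as a term, 0 ATF4-arm genes passed. In the endoplasmic reticulum arm 1 passed within the 4 libraries. The ATF4-arm median log2 fold change ran from -0.37 without dKO clone 3 to -0.18 without dKO clone 2. That of the endoplasmic reticulum arm ran from -0.11 without dKO clone 3 to 0.08 without control clone 1 or without dKO clone 1. The causes were not tested.

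The clone numbers did not pair the libraries: deviations of same-numbered clones correlated at -0.36, 0.64 and -0.34. With the number as a replicate block, 196 genes passed, 2 of them in the ATF4 arm (Atf5 and Asns) and none in the endoplasmic reticulum arm.

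The log2 fold changes that changed sign with 1 library left out ranged from -0.14 to 0.36 for Atf3, -0.09 to 0.10 for Cebpg, -0.18 to 0.20 for Psph, -0.58 to 0.58 for Aldh1l2, -0.17 to 0.10 for Slc7a1 and -0.24 to 0.02 for Mars. In the endoplasmic reticulum arm they ranged from -0.15 to 0.01 for Atf6, -0.09 to 0.20 for Dnajb9, -0.09 to 0.31 for Calr, -0.11 to 0.13 for Hyou1, -0.15 to 0.08 for Sdf2l1, -0.09 to 0.22 for Manf, -0.13 to 0.12 for Creld2 and -0.27 to 0.00 for Edem1. Within the 4 libraries the sign changed for Atf3 (-0.05), Psph (0.05), Aldh1l2 (-0.20), Slc7a1 (0.07), Dnajb9 (-0.17), Hyou1 (-0.00), Creld2 (-0.07) and Edem1 (0.05). Aldh1l2, with 34 to 150 reads a library, was at -0.11 with the quasi-likelihood test and -0.12 with DESeq2, and Edem1 was at 0.00 with chromosome medians removed. The lowest SE of a member's log2 fold change was 0.12, with 3 clones a group.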
